A study of Mus musculus with 121 samples.

Results

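The proteins of the cytosolic ribosome are encoded by a large family of genes, and 76 of them were followed here through single bone marrow cells. They were taken by symbol, as every gene row named Rpl or Rps followed by a number (with a, or x for Rps4x, where the symbol has it), Rplp0 to Rplp2 and Rpsa. The rule found 76 of the 23946 genes in the table, 46 of the large subunit and 30 of the small one. Rps3a1 and Fau also encode ribosomal proteins but fall outside the rule, and they are described separately. All of the cells came from C57BL/6 mice with the Gfi1 R412X allele, written Gfi1-R412X/- and also HTZ in the labels. Gfi1 is a transcriptional repressor needed for neutrophil development. The cells fall into 46 of the CD11b+ GMP-P population and 75 of the GMP population, sorted by flow cytometry from crushed hindlimb marrow after enrichment on CD117 beads and captured on a Fluidigm C1 chip. Each cell also carries 1 of 12 state names in the authors' deposited table. Since no cells without the allele enter the comparisons, none of the values below measures its effect.

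Cytosolic ribosomes are built in the nucleolus from ribosomal RNAs and about one copy of each ribosomal protein, so the genes of the family are usually expressed together and at very high levels. Many of their mRNAs start with a C followed by a run of pyrimidines, the terminal oligopyrimidine (TOP) start, through which their translation responds to mTOR signalling. During neutrophil maturation, dividing precursors that make granule proteins give way to cells that have stopped dividing, and loss of single ribosomal protein genes in human Diamond-Blackfan anemia mainly affects red cell precursors.

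Run names are tied to the populations. All 46 CD11b+ GMP-P cells share 1 run name dated late July. Of the GMP cells, 13 carry 2 other late July run names and are called July GMP here, and 62 carry a name without a date and are called the R412X-GMP run. Population and run therefore cannot be told apart, and because no animal is named, each population counts as 1 sample and no p-value was computed. SDs describe the spread of single cells. The values are TPM on a log2 scale, which keep no record of reads, so the depth of each cell is unknown. A gene was called detected at a TPM of 1 or more, and all 76 genes passed a filter of detection in 10% of the cells of either population, as did 9150 genes in all. Differences are between means of log2(TPM + 1), a scale that understates changes of low genes, and a difference of 1 (a 2-fold change) or more is counted. The state names were given by the authors to these same cells, so a difference between states describes the annotation and is no independent test.

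The 76 genes were among the most abundant in the cells. By mean TPM over all cells, 39 of them stood among the 100 highest genes and 73 among the 500 highest. Only 3.77% of their values were 0, against 81.7% of all values in the table. The highest mean TPM belonged to Rpl41, which encodes the smallest ribosomal protein, at 4768 TPM. It was followed by Rps18, a protein of the head of the small subunit, at 4675 TPM. Rps19, the gene most often mutated in Diamond-Blackfan anemia, averaged 3866 TPM and Rps25 averaged 3464 TPM. At the low end stood Rps15a at 69.5 TPM, Rpl22 at 131 TPM, Rpl30 at 251 TPM and Rpl31 at 449 TPM, so mean levels within the family differed widely. For Rps15a, pseudogene rows held further TPM, as given below, so the level of its single row is uncertain. Only 5 of the 76 genes were detected in every cell, whereas 68 were detected in all 62 cells of the R412X-GMP run.

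The transcription starts of 8 of these genes are shown because they are those with the largest and smallest differences, or are named below for their level, for a near copy or, for Rplp2, as a stalk protein. They come from the RefSeq promoter table on the mouse build GRCm38.p6, which held 66 promoters of 56 of the 76 genes. Each run gives 15 bases before the annotated start and 15 bases from it, on the strand of the gene, and the capitals mark the longest stretch of C and T that reaches the start or lies after it. The first 4 have a C at the start followed by 4 bases that are each C or T, and the last 4 do not.
Rps18 (chr17:33955651-33955680, minus strand): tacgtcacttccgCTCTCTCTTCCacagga
Rplp2 (chr7:141447636-141447665, plus strand): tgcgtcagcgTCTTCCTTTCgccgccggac
Rps27 (chr3:90213634-90213663, minus strand): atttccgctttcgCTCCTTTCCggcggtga
Rps15a (chr7:118116133-118116162, minus strand): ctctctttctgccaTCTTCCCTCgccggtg
Rpl12 (chr2:32961697-32961726, plus strand): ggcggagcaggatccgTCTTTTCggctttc
Rpl18 (chr7:45718056-45718085, plus strand): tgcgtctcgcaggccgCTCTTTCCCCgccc
Rps9 (chr7:3704026-3704055, plus strand): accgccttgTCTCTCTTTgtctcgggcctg
Rpl27 (chr11:101442230-101442259, plus strand): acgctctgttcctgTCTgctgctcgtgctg
Such a C start stood in 13 of the 66 promoters, 19.7%, against 2.51% of all 32851 promoters of the table. The letters CTTTC, searched on the strand of the gene only within 25 bases on each side of the start, stood in 27.3% of the promoters of the family and in 6.75% of all. A start misplaced by 1 base in the annotation hides the C start, so these shares describe the annotation and not the mRNAs.

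The summed share of TPM held by the 76 genes differed several fold between states. In CD11b+ GMP-P its median was 11.8% in 6 Mono cells, 12% in 3 Gran-1 cells and 8.44% in 13 Gran-2 cells. It was 7.20% in 5 Myelo-1 cells, 2.47% in 11 Myelo-2 cells, 4.80% in the lone Myelo-3 cell and 1.87% in 7 Myelo-4 cells. The order therefore ran from the Mono and Gran cells down to Myelo-4. The 24 Myelo cells together ranged from 0.835% to 8.96% (median 2.43%), against 6.55% to 13.4% (median 8.59%) in the 16 Gran cells. Of the 24 Myelo cells, 20 lay below the lowest Gran cell and 4 overlapped the Gran cells. Of these 4, 3 were Myelo-1 cells and 1 was a Myelo-2 cell, at 8.96%, far above the median of its state.

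Other measures moved with this share. In Myelo-4 the 20 most abundant genes outside the family held a median of 60.6% of TPM, and in Myelo-2 54.8%, against 27.4% in Gran-2. These 20 include S100a8, S100a9, Ngp and Camp, which encode proteins of neutrophil cytosol and granules. With those 20 genes taken out of the total, the family held 4.60% in Myelo-4, 5.15% in Myelo-2 and 9.65% in Myelo-1, against 11.7% in Gran-2, so these 4 states kept their order and the distance shrank. The lone Myelo-3 cell, at 9.85%, moved above the median of Myelo-1. Fewer genes were detected as well, with medians of 1642 in Myelo-4, 2261 in Myelo-2 and 2504 in Myelo-1, against 3760 in Gran-2. Within the 24 Myelo cells the share of the family had a Pearson r of -0.87 with the share of those 20 genes and of 0.27 with the number of detected genes. Over all 46 CD11b+ GMP-P cells, Myelo, Gran and Mono together, these values were -0.91 and 0.76. With the 20 genes taken out of the total, the r with detected genes over these 46 cells was 0.72. In the 62 cells of the R412X-GMP run the values were -0.59 and -0.47. Each value is a description over cells of 1 run, and the share of the family and that of the 20 genes have the same total of TPM. The part of detection and of total RNA per cell in the lower levels was not tested.

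In the R412X-GMP run the share was higher, and nearly level in the states with at least 5 cells. Its median was 17.4% in 11 MP cells, 18.1% in 5 cMoP cells, 17.8% in 32 Mono cells and 15.6% in 9 Gran-1 cells, and the lone HSCP-1 cell had the highest share of all, 29%. The smaller states varied more, with 11.5% and 27.8% in 2 Multi-Lin cells, 22.7% in the MDP cell and 12.9% in the Gran-2 cell. The July GMP cells repeated the range of CD11b+ GMP-P, with 11.8% and 16% in 2 Gran-1 cells, 6.82% in 1 Gran-2 cell, a median of 3.23% in 7 Myelo-2 cells and 1.82%, 2.17% and 2.28% in 3 Myelo-4 cells. All 10 July GMP Myelo cells lay below all 3 Gran cells.

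**Figure D1:**
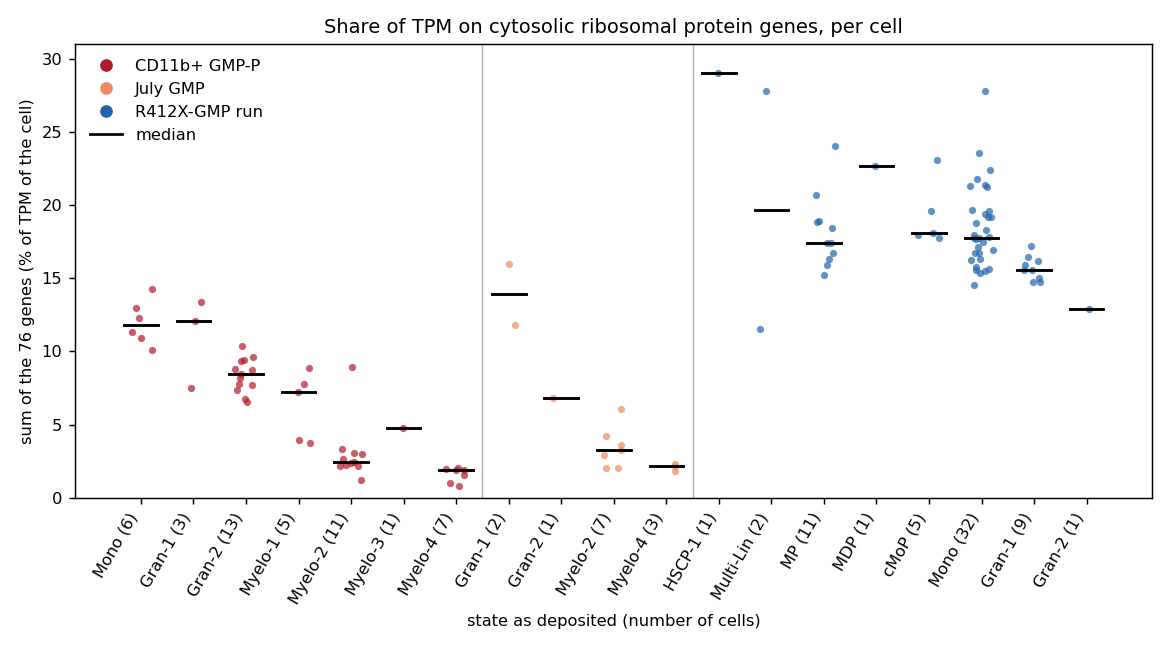
Share of the TPM of each cell held by the 76 genes (vertical axis, percent), by state within CD11b+ GMP-P, July GMP and the R412X-GMP run; points are cells and lines are medians. The share is 1.87% at the median in CD11b+ GMP-P Myelo-4 cells and 8.44% in Gran-2 cells, while the MP, cMoP and Mono cells of the R412X-GMP run have medians of 17.4% to 18.1%.

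The lower level in the Myelo states took in the whole family. Within CD11b+ GMP-P, the mean log2 level of every one of the 76 genes was lower in Myelo than in Gran cells, and 74 of 76 (97.4%) were lower by 1 or more, where 38.8% of the 9150 genes kept by the filter were. None was higher by 1 or more, as 2.35% of all genes were. The median difference was -2.68 for the family and -0.70 for all genes. All genes kept by the filter include low ones, which have little room to fall on this scale, whereas the family is among the most abundant. No set of genes matched to the family in level was compared, here or in the comparisons below. What part of the contrast with all genes comes from level was therefore not tested. The 46 large subunit genes (median -2.73, 45 lower by 1 or more) and the 30 small subunit genes (median -2.57, 29 lower by 1 or more) moved alike, and the small subunit held 44.4% of the summed TPM of the family in the median Myelo cell and 42.3% in the median Gran cell. On the ratio of mean TPM, where a few high cells weigh more, the median of the family was -1.47. Among Myelo cells with at least 2000 detected genes (12 of 24) it was -1.74, with 63 genes lower by 1 or more, where 31.4% of all genes were.

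The largest differences belonged to 4 large subunit genes and 1 of the small subunit. Rpl12, which encodes a protein at the base of the ribosomal stalk, had 0, 2.15 and 1142 TPM as its lowest, median and highest value in Myelo cells, against 126, 541 and 2487 TPM in Gran cells. It was detected in 13 of 24 Myelo cells (95% interval 32.8% to 74.4%, exact binomial, counting error only) and in all 16 Gran cells, and its difference was -5.58. The median Myelo cell thus lay far below every Gran cell, yet the highest Myelo cell was in the Gran range. Rpl18 had 0, 20.1 and 4308 TPM in Myelo cells, against 45.9, 952 and 2423 TPM in Gran cells, a difference of -4.84. Here the single highest value lay in a Myelo cell, and the ratio of mean TPM was only -1.03 on the log2 scale. Rpl10a, a protein of the mobile L1 stalk where spent tRNA leaves, had a median of 50.8 TPM in Myelo cells and 771 TPM in Gran cells, with a difference of -4.67. Rpl3, a core protein near the peptidyl transferase centre, had a median of 170 TPM in Myelo cells and 2202 TPM in Gran cells, with a difference of -4.12. Rps4x, the X-linked gene of small subunit protein S4, had a median of 93.7 TPM in Myelo cells and 1327 TPM in Gran cells, with a difference of -4.01. In all 5 genes the Myelo and Gran cells overlapped, as they did in every gene of the family. Such overlap is not particular to the family, since no gene kept by the filter had every Myelo cell below all Gran cells.

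At the other end, Rpl27 and Rps9 were the genes that did not reach a difference of 1. Rps9, a small subunit protein near the channel through which mRNA enters, had 7.95, 1226 and 6123 TPM in Myelo cells, against 877, 2185 and 2615 TPM in Gran cells. It was detected in all 24 Myelo cells and all 16 Gran cells, and its difference was -0.99. The value is close to the limit of 1, and was -0.69 without the Myelo-3 cell and -1.02 without the Myelo-4 cells. Rpl27 had 0, 190 and 1256 TPM in Myelo cells, against 0, 316 and 1303 TPM in Gran cells, a difference of -0.57. Its cells overlapped almost wholly, and the sign depended on the cells taken, since it was 0.10 without Myelo-4 and 0.67 among cells with at least 2000 detected genes. Rps15a, just past the limit at -1.02, had a median of 23.1 TPM in Myelo cells and 37.6 TPM in Gran cells, and was 0.17 among cells with at least 2000 detected genes. With the TPM of its pseudogene rows added, the difference over all Myelo and Gran cells was -1.18. The Rps15a row held 46.4% of that summed TPM in Myelo cells and 41.2% in Gran cells. Rpl37 (-1.19) and Rps25 (-1.36) completed the 5 smallest differences.

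The genes of highest level fell with the rest. Rpl41 had 27, 973 and 4644 TPM in Myelo cells, against 2183, 3445 and 6260 TPM in Gran cells, a difference of -2.04. Rps18 had 0, 799 and 6928 TPM in Myelo cells, against 892, 3556 and 7459 TPM in Gran cells, a difference of -3.11. Rps19 had a median of 718 TPM in Myelo cells and 2448 TPM in Gran cells, with a difference of -1.68. For Rpl41 and Rps18 the median Myelo cell lay below the lowest Gran cell, while for Rps19 both groups reached down to 0. Of the genes of lowest level, Rpl22 (-2.58), Rpl31 (-3.18) and Rpl30 (-3.20) also passed the limit, and Rpl30 was detected in 4 of 24 Myelo cells (95% interval 4.74% to 37.4%) and in 8 of 16 Gran cells.

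Groups of proteins with a shared place on the ribosome were lower together. The stalk proteins Rplp0, Rplp1 and Rplp2, which recruit the GTPase translation factors, differed by -2.16, -3.43 and -3.07. Rplp0 had a median of 480 TPM in Myelo cells and 1798 TPM in Gran cells, and Rplp1 of 76.5 TPM in Myelo cells and 923 TPM in Gran cells. The pair that carries the 5S ribosomal RNA and can bind Mdm2, Rpl5 and Rpl11, differed by -2.83 and -2.79. All 9 listed proteins of the tunnel through which the new chain leaves were lower by 1 or more, with a median of -3.18, led by Rpl19 (-3.94), Rpl39 (-3.90), Rpl17 (-3.59) and Rpl4 (-3.56). All 5 listed proteins around the entry and exit of mRNA on the small subunit were too, with a median of -2.72 and Rps2 (-3.69) and Rps3 (-3.10) in front. Rps9, also near the entry channel, was not on that list and did not reach the limit (-0.99). Of 18 listed genes that are mutated in human Diamond-Blackfan anemia, a list that may not be complete, 17 were lower by 1 or more (median -2.54), Rpl27 being the exception. With 97.4% of the family and 38.8% of all genes lower by 1 or more, such counts are near those of the family as a whole, and the group medians lie around its median, -2.68.

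**Figure D2:**
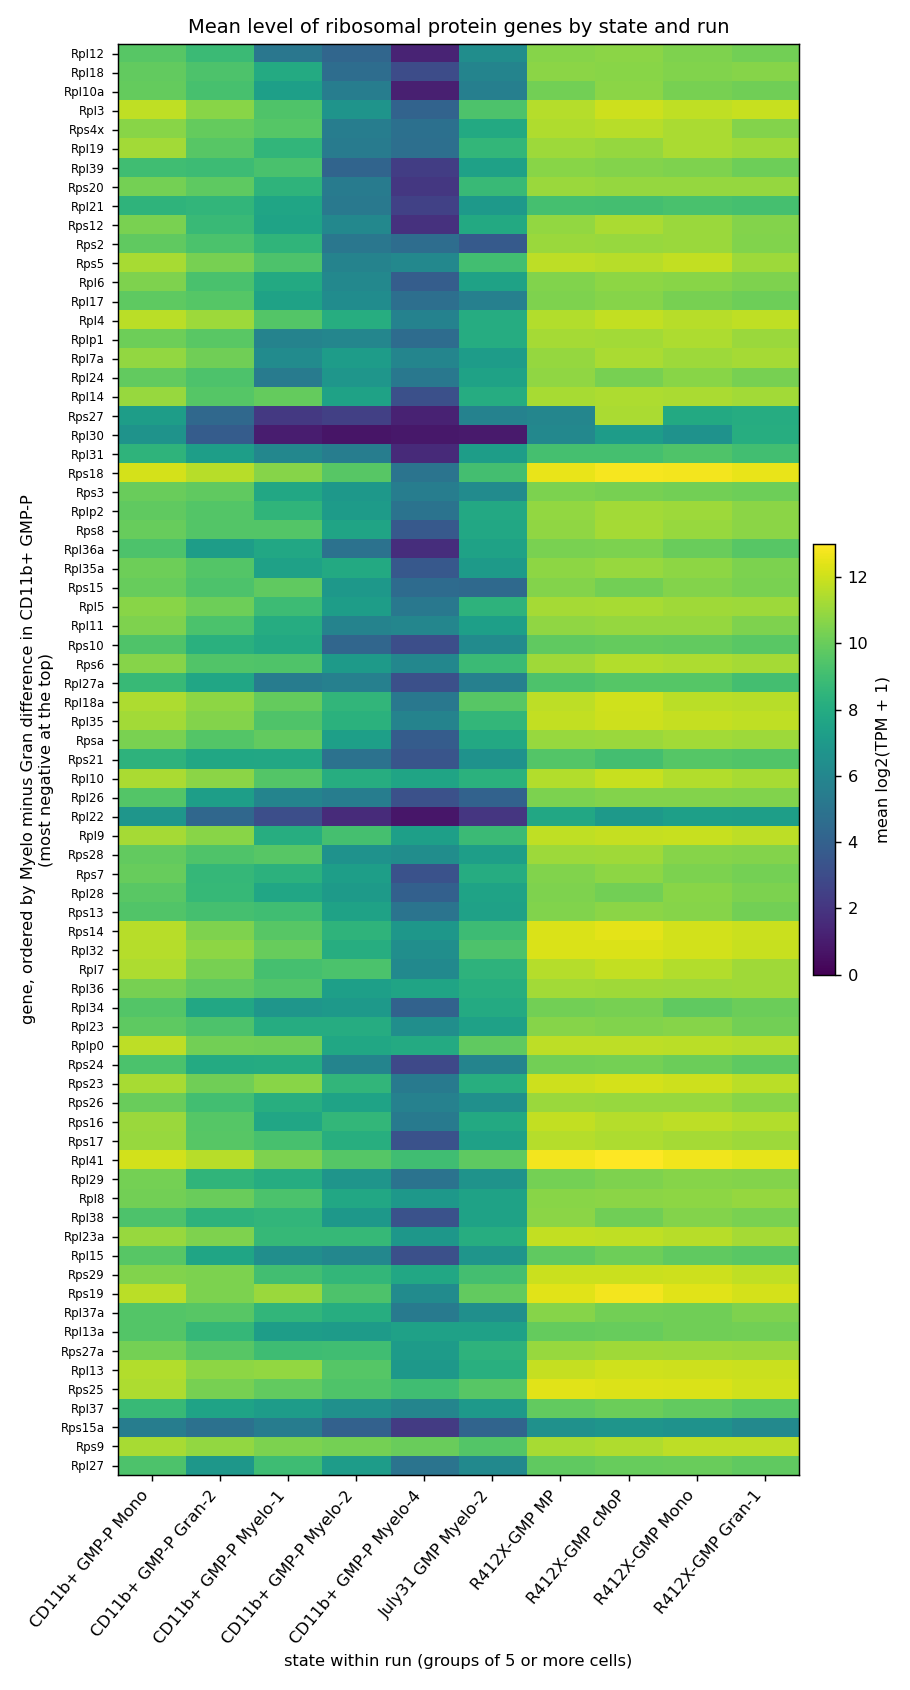
Mean log2(TPM + 1) of the genes of the family, 1 of them left out (rows, from the most negative Myelo minus Gran difference at the top to the least negative at the bottom) in 10 groups of at least 5 cells that share a state and a run name (columns). Levels are lower in the Myelo columns for nearly all genes, while Rps9, in the second row from the bottom, stays at 10.02 in CD11b+ GMP-P Myelo-4 cells; Rps27 and Rpl30 are at 1.22 and 0.83 there.

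Seen stage by stage against Gran-2 cells of CD11b+ GMP-P, the differences grew. With all 24 Myelo cells pooled, 74 genes were lower by 1 or more, where 39.6% of all genes were, and none was higher, as 2.28% were. In the 5 Myelo-1 cells the median of the family was -1.0 (-0.49 for all genes), with 38 genes lower by 1 or more, where 33.6% of all genes were. Of these, 31 were among the 46 large subunit genes (median -1.21) and 7 among the 30 small subunit genes (median -0.45), the small subunit thus lying near the median of all genes. With 5 cells this difference between subunits is a description. Rplp1 (-3.87) was among the lowest, and Rpl27 alone was higher by 1 or more, at 2.05, where 9.19% of all genes were. In the 11 Myelo-2 cells the median was -2.18 and 69 genes were lower by 1 or more and none higher, where 37.1% of all genes were lower and 4.42% higher. In the 7 Myelo-4 cells the median was -4.32 and 75 genes were lower by 1 or more, where 46.9% of all genes were lower and 4.61% higher, Rps9 alone staying within the limit at -0.88. Set directly against Myelo-2, Myelo-4 cells were lower by a median of 1.86 on the log2 scale, and 58 genes were lower by 1 or more, where 21.7% of all genes were. None was higher, as 7.21% of all genes were. In that comparison Rps18 had 0, 77.3 and 1920 TPM in Myelo-4 cells, against 219, 895 and 6928 TPM in Myelo-2 cells, whereas Rps9 had 214, 1315 and 2603 TPM in Myelo-4 cells, against 259, 1136 and 6123 TPM in Myelo-2 cells. Rps18 was missed in 3 of 7 Myelo-4 cells while Rps9 was detected in all 7. The Mono cells of CD11b+ GMP-P lay on the other side of Gran-2, with a median of 0.75 and 30 genes higher by 1 or more, a share near the 29.9% of all genes that were.

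Markers of granules and of other cell types gave the following values in the same cells. The summed TPM of 8 secondary granule genes, such as Ltf, Camp and Ngp, had a median of 194050 in Myelo cells of CD11b+ GMP-P (lowest 858, highest 272234), against 18448 in Gran cells (lowest 1160, highest 61717). Summed TPM of the 5 measured primary granule genes, such as Mpo and Elane, had a median of 1277 in Myelo cells and 43900 in Gran cells. All 6 erythroid markers were at 0 in both groups of cells. Monocyte markers summed to a median of 2.04 TPM in Myelo cells and 24.2 TPM in Gran cells. B cell markers were at 0 in all Myelo cells and reached at most 32 TPM in Gran cells. The 6 basophil and mast markers had a median of 359 TPM in Myelo cells (highest 3172) and 447 TPM in Gran cells (highest 1364). The cell at 3172 TPM was a Myelo-1 cell with 1739 TPM of monocyte markers and the lowest secondary granule sum, 858. Its share of TPM on the family, 8.88%, lay in the Gran range. In July GMP, 1 of the 3 Gran cells held globin mRNA, with 2783 TPM of erythroid markers. The median Myelo cell thus had more secondary granule mRNA and less ribosomal protein mRNA than the median Gran cell, and what part the granule mRNA has in the lower levels was not tested.

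The July GMP cells allow a similar comparison in cells of the other population, although with 10 Myelo and 3 Gran cells and another mix of states. Its Myelo cells were 7 Myelo-2 and 3 Myelo-4 cells, and its Gran cells 2 Gran-1 cells and 1 Gran-2 cell. In CD11b+ GMP-P the Myelo cells also took in 5 Myelo-1 cells, and 13 Gran cells were Gran-2. There 73 of the 76 genes were lower in Myelo cells and 67 were lower by 1 or more, where 36.9% of all genes were, and the median was -2.61 (-0.25 for all genes). In both populations 73 genes were lower and 65 were lower by 1 or more, where 20.5% of all genes were lower by 1 or more in both. Rpl18 had 1.97, 48.6 and 1224 TPM in Myelo cells, against 1260, 1450 and 1726 TPM in the 3 Gran cells, a difference of -4.98 with no overlap. Of the other genes with the largest differences in CD11b+ GMP-P, Rpl12 differed by -3.78 and Rpl10a by -2.87 in July GMP. Rpl3 (-1.74) and Rps4x (-0.82) did not keep their place. Rps9 differed by -1.74, smaller in size than the median of the family, with a median of 1042 TPM in Myelo cells and 2641 TPM in Gran cells. Rpl3 and Rps4x thus fell no more than Rps9 there. Rpl27, the smallest difference in CD11b+ GMP-P, differed by -3.89 in July GMP, with a median of 71.3 TPM in Myelo cells and 513 TPM in Gran cells. Its lack of a fall therefore did not recur, but the mix of states differs. In CD11b+ GMP-P the mean log2 level of Rpl27 was 8.95 in Myelo-1 and 6.90 in Gran-2, and July GMP holds no Myelo-1 cells. In 18 of the 76 genes every July GMP Myelo cell lay below all 3 Gran cells, which was so for 157 of the 9150 genes.

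The genes that were not lower in July GMP Myelo cells were Rpl34 (0.74), Rpl30 (0.67) and Rps13 (0.01), named after their values were seen. Rpl34 ranged from 5.81 to 721 TPM in Myelo cells, against 0, 623 and 1208 TPM in the 3 Gran cells, 1 of which was thus at 0. With the TPM of the pseudogene row Rpl34-ps1 added, the difference was -1.42. Rpl30 was detected in 2 of 10 Myelo cells and in none of the 3 Gran cells. Rps13 had a median of 579 TPM in Myelo cells, against 13.3, 1075 and 1227 TPM in the 3 Gran cells, 1 of which was low here as well.

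**Figure D3:**
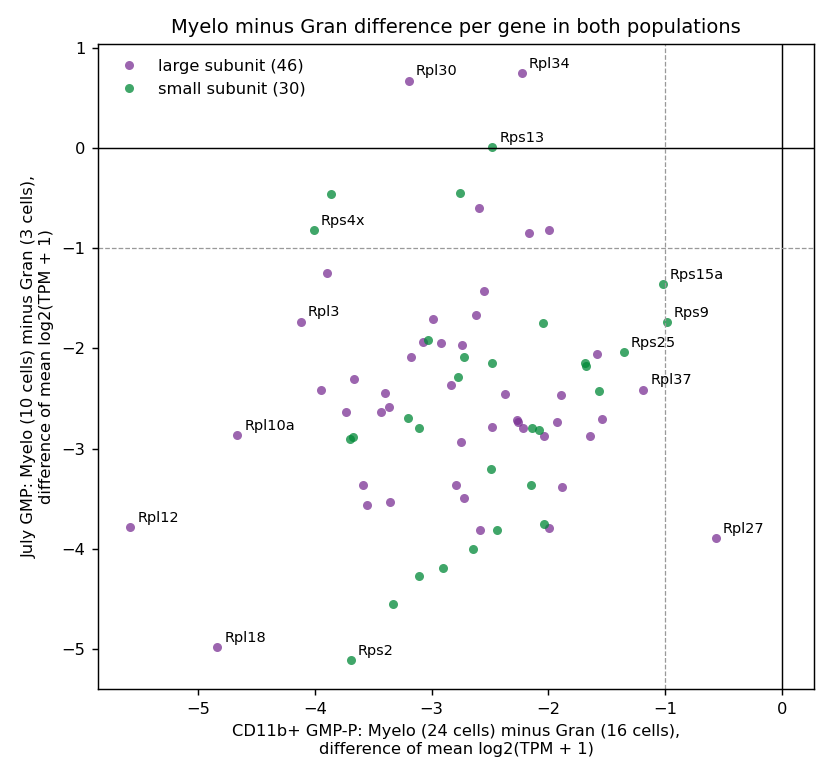
Difference of mean log2(TPM + 1) between Myelo and Gran cells for each of the 76 genes, in CD11b+ GMP-P (horizontal axis) and July GMP (vertical axis), coloured by subunit; dashed lines mark a difference of -1. All points lie left of 0, and all but Rpl30, Rpl34 and Rps13 lie below 0, with Rpl12 and Rpl18 at the lower left and Rps9, Rps15a and Rpl27 at the right.

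A share within the family does not move with the scale of a cell. By this measure Rps9, named for its small difference, took more of the family in Myelo cells, as did some other genes. In CD11b+ GMP-P this largely follows from how Rps9 was named, since its difference there was taken from the same cells. Only the Myelo and Gran cells of July GMP lie outside that choice. It held a median of 4.68% of the summed TPM of the 76 genes in the 24 Myelo cells of CD11b+ GMP-P (lowest 0.0166%, highest 18%), against 2.44% in the 16 Gran cells (lowest 0.930%, highest 3.56%). By state the median was 2.46% in Gran-2, 2.39% in Myelo-1, 5.02% in Myelo-2 and 6.92% in Myelo-4. In July GMP it was 4.16% in Myelo cells (lowest 0.128%, highest 6.17%) and 2.28% in Gran cells (1.65%, 2.28% and 3.02%). In the states of the R412X-GMP run with at least 5 cells it lay between 1.52% in MP and 2.07% in Gran-1, and in the smaller ones between 0.734% in the HSCP-1 cell and 2.71% in 2 Multi-Lin cells. Of the Myelo cells, 14 of 24 in CD11b+ GMP-P and 8 of 10 in July GMP lay above every Gran cell of their population, and 2 in each lay below every one, among them the lone Myelo-3 cell.

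Over group means, a log2 ratio of shares beyond 0.5 in the same direction in both populations was met by 3 genes with a higher share (Rps9, Rps13 and Rpl36a) and 4 with a lower share (Rpl12, Rpl17, Rpl4 and Rps2). Some of these were named after their values were seen. For Rpl36a and Rps13 the higher mean share in CD11b+ GMP-P rests on a few high cells: the median cell had 0.0996% for Rpl36a in Myelo, against 0.519% in Gran, and 0.872% for Rps13 in Myelo, against 0.947% in Gran. Rps9 took 4.50% of the mean TPM of the family in Myelo cells and 2.27% in Gran cells of CD11b+ GMP-P. Rpl12 took 0.453% in Myelo cells and 0.869% in Gran cells, and Rpl4, which lines the exit tunnel, 2.03% in Myelo cells and 2.89% in Gran cells. Rps2, near the mRNA entry site, took 0.536% in Myelo cells and 0.873% in Gran cells, and in July GMP 0.223% in Myelo cells and 0.815% in Gran cells. In CD11b+ GMP-P taken alone, 10 genes had a share higher by more than 0.5 on the log2 scale, 12 a lower one, and 54 stayed within. Other genes passed 0.5 in opposite directions in CD11b+ GMP-P and July GMP, namely Rpl21 (-0.90 and 0.69), Rpl31 (-0.58 and 0.75) and Rps21 (0.85 and -1.07). How many genes 2 unrelated lists would share was not computed, so the 3 and 4 shared genes are a description. Rps18 took 3.89% of the mean in Myelo cells and 4.20% in Gran cells, but its median share by cell was 0.414% in Myelo-4 and 3.85% in Gran-2.

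**Figure D4:**
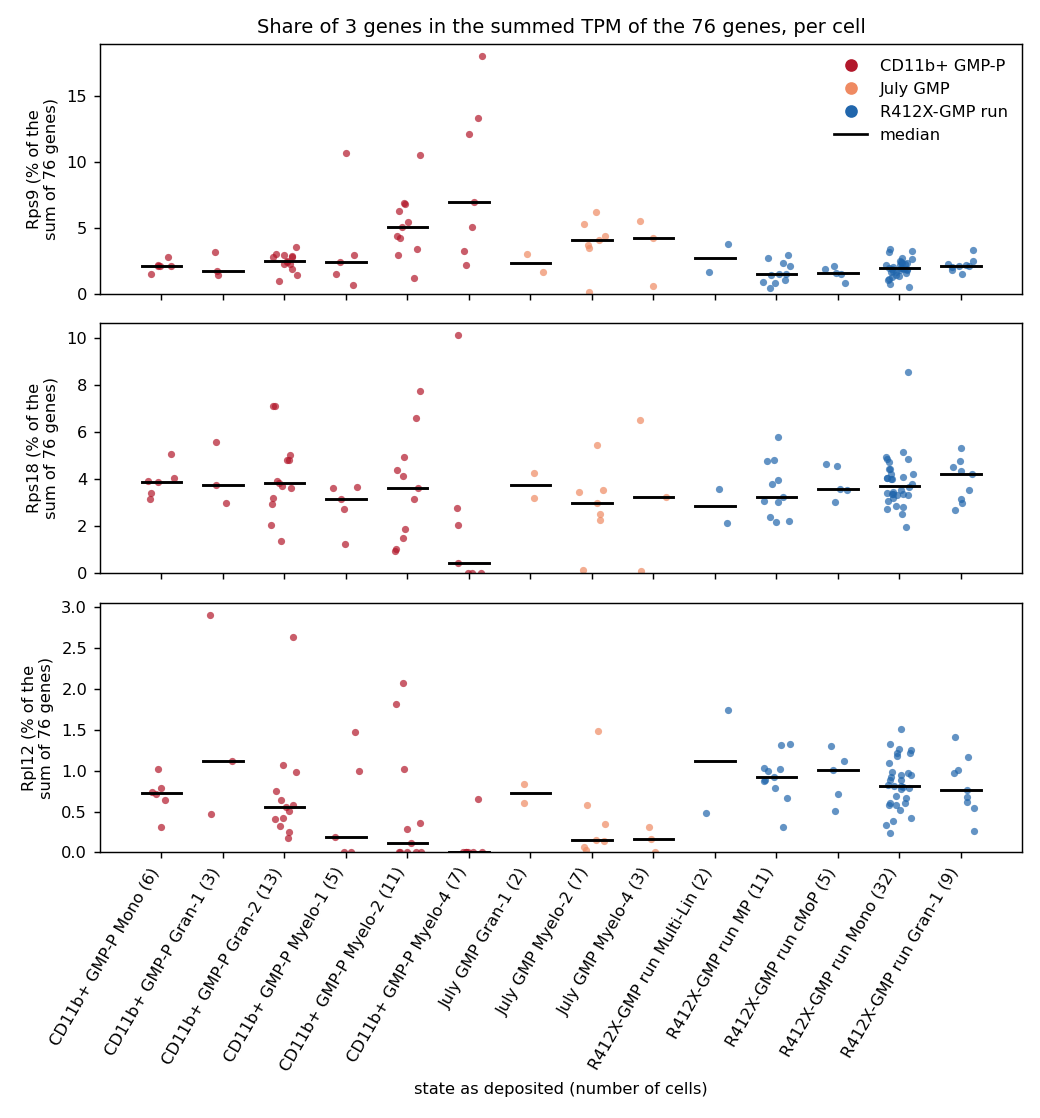
Share of the summed TPM of the 76 genes taken by Rps9, Rps18 and Rpl12 in each cell (vertical axes, percent), by population or run and state, for states with at least 2 cells; points are cells and lines are medians. Rps9 has a median of 6.92% in CD11b+ GMP-P Myelo-4 cells and 2.46% in Gran-2 cells, while Rpl12 is at 0% in the median Myelo-4 cell and at 0.552% in the median Gran-2 cell.

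Within the R412X-GMP run the family was nearly level across the 4 states with at least 5 cells. Against 11 MP cells, the median difference was 0.02 in 32 Mono cells, where no gene of the family was lower by 1 or more (8.68% of all genes were) and 1 was higher (13.7% of all genes were). In 9 Gran-1 cells it was -0.16, again with no gene lower by 1 or more (9.52% of all genes were) and 2 higher (23% of all genes were). In 5 cMoP cells set against Mono it was 0.11, with 0 lower (21.2% of all genes) and 1 higher (15% of all genes). Rpl41 had 2119, 6522 and 14450 TPM in Mono cells, against 4913, 6634 and 13579 TPM in MP cells, which overlap almost fully. The SD of log2(TPM + 1) over the 62 cells had a median of 0.60 over the 76 genes and was under 1 for 66 of them. Of the other 10, 8 lay between 1.06 (Rpl36a) and 1.61 (Rpl26), while Rpl30 had an SD of 3.72 and Rps27 of 4.93; they were named after their values were seen.

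Rps27, a zinc-finger protein of the small subunit, was the source of every gene counted as higher in these comparisons except Rpl30 in Gran-1. It differed by 1.93 in Mono against MP, by 2.09 in Gran-1 against MP and by 3.44 in cMoP against Mono. Most of its values were either 0 or high. Of the 62 cells, 16 were under 1 TPM, 4 had 1 to 200 TPM and 42 had over 1000 TPM. It was detected in 24 of 32 Mono cells and in 6 of 11 MP cells. The table also holds Rps27rt, a retrogene copy. Of the 62 cells, 41 had both rows detected, 5 had Rps27 alone, 16 had Rps27rt alone and 0 had neither. Log2 of the summed TPM of both rows plus 1 averaged 11.61 with an SD of 0.56, against an SD of 4.93 for Rps27 alone. With the sum in place of Rps27, the difference was -0.01 in Mono against MP, -0.43 in Gran-1 against MP and 0.33 in cMoP against Mono, so none of the 3 reached 1. The Myelo minus Gran difference in CD11b+ GMP-P was -2.04 for the sum and -3.33 for Rps27. The sources used here do not say how reads shared by both copies were divided, so the single rows are uncertain and the sum is the safer value.

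**Figure D5:**
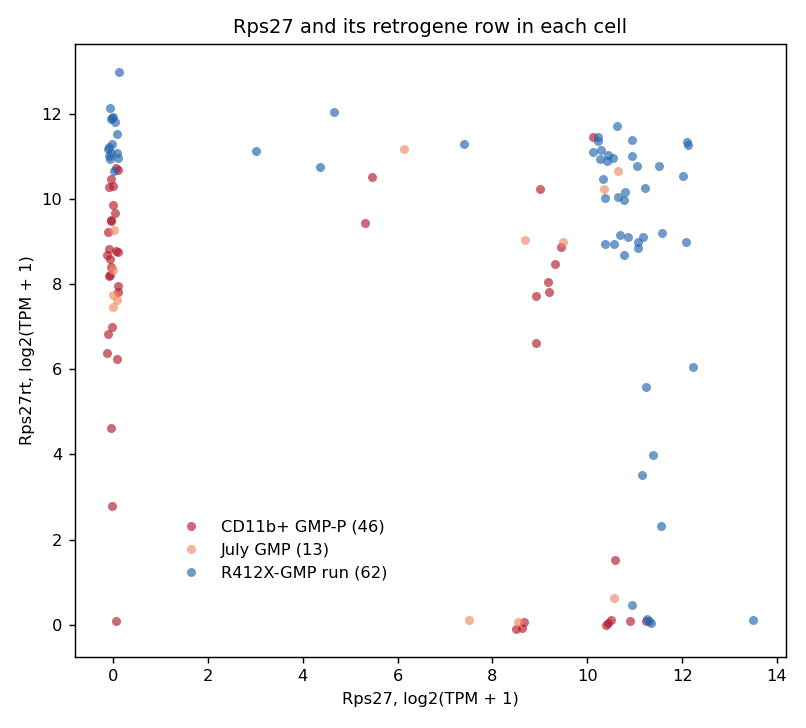
Log2(TPM + 1) of Rps27 (horizontal axis) and of its retrogene row Rps27rt (vertical axis) in each cell, shifted slightly at random so that points at 0 can be told apart, coloured by population and run. In the R412X-GMP run, 16 of 62 cells lie on the vertical axis with Rps27rt alone detected, and 0 cells have neither row.

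Rpl30, a large subunit protein that in yeast represses its own splicing, behaved in another way. In CD11b+ GMP-P it was detected in 17 of 46 cells (95% interval 23.2% to 52.5%), in July GMP in 2 of 13 and in the R412X-GMP run in 49 of 62, where detected cells had a median of 432 TPM. By state, it was detected in 5 of 6 Mono cells and 6 of 13 Gran-2 cells of CD11b+ GMP-P, then in 1 of 5 Myelo-1 cells, 2 of 11 Myelo-2 cells and 1 of 7 Myelo-4 cells. Zeros of Rpl30 occurred in every state of the R412X-GMP run with 2 or more cells, so a 0 in a single cell is weak evidence of a low level.

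The populations could be compared within a state in 2 cases, each with run and population tied. Among Mono cells, 6 of CD11b+ GMP-P and 32 of GMP, the median difference was -0.64 (-0.15 for all genes), 73 genes were lower and 12 were lower by 1 or more, fewer in share than the 18.8% of all genes. All 6 CD11b+ GMP-P cells had a smaller summed share of TPM than any GMP Mono cell, with a highest value of 14.3% against a lowest of 14.5%. Rps29, with a difference of -1.48, and Rpl39, with -1.47, were lowest. Rplp1 had 562, 1111 and 2407 TPM in CD11b+ GMP-P, against 1114, 2612 and 6184 TPM in GMP, and Rplp2 differed by -1.27. Their partner Rplp0 did not follow, at 2148, 3295 and 4978 TPM in CD11b+ GMP-P, against 937, 3452 and 4988 TPM in GMP, a difference of 0.04. Rpl3 (-0.02) and Rpl4 (0.06) were likewise level.

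Among Myelo-2 cells, 11 of CD11b+ GMP-P and 7 of GMP, the median difference was -0.58 (-0.04 for all genes), with 26 genes lower by 1 or more (18.4% of all genes were) and 2 higher (9.38% of all genes were). The summed share overlapped, since only 1 CD11b+ GMP-P cell lay below the lowest GMP cell. Rplp0 had 31, 328 and 1116 TPM in CD11b+ GMP-P, against 553, 883 and 2055 TPM in GMP, a difference of -2.26, and Rplp1 differed by -2.21. Over all cells, CD11b+ GMP-P minus GMP gave a median of -2.34 with 75 of 76 genes lower by 1 or more (28.8% of all genes were) and none higher (2.3% were), Rps9 being the exception at -0.86. Against the R412X-GMP run alone all 76 were lower by 1 or more (36.7% of all genes were) and none higher (2.77% were). Against July GMP alone the median was 0.13, with 5 genes lower by 1 or more (5.08% of all genes were) and 7 higher (11.1% of all genes were). The mix of states differs in these pools: 24 of 46 CD11b+ GMP-P cells and 10 of 13 July GMP cells are Myelo, and none of the 62 cells of the R412X-GMP run is.

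Genes around the family were read in the same Myelo minus Gran comparison of CD11b+ GMP-P. Fau, a fusion of a ubiquitin-like protein with Rps30, had 9.75, 635 and 3143 TPM in Myelo cells, against 14.2, 921 and 1772 TPM in Gran cells, a difference of -0.47. Its cells overlapped widely and it was detected in all 24 Myelo cells, and in July GMP it differed by -0.69. Rps27a, the ubiquitin fusion inside the family, differed by -1.57. Rps3a1, which the symbol rule leaves out, differed by -3.29, with a median of 278 TPM in Myelo cells and 2473 TPM in Gran cells. Of the 8 paralogs listed, 4 passed the filter and all 4 were lower by 1 or more, namely Rpl7l1 (-3.50), Rps27l (-3.41), Rpl22l1 (-2.69) and Rpl36al (-2.59).

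Of 22 translation factors and other TOP mRNAs, 19 were lower by 1 or more (median -2.95), and Vim, at 0.43, was one of the 3 that were not. Eef1g, a subunit of elongation factor 1, differed by -5.35, Npm1, a nucleolar chaperone, by -4.78, Gnb2l1, the small subunit scaffold RACK1, by -3.86 and Eif3k by -3.85. Of 30 nucleolar biogenesis genes, 22 were lower by 1 or more (median -1.92), led by Nop10 (-4.80) and Nop58 (-4.73), core proteins of the H/ACA and C/D snoRNPs, Dkc1 (-4.31) and Nolc1 (-4.23). Mitochondrial ribosomal proteins, which form a separate ribosome, had 56 of 76 lower by 1 or more (median -1.71), with Mrpl42 (-4.44) and Mrpl2 (-4.06) in front, and 1 higher by 1 or more. Of all genes, 38.8% were lower and 2.35% higher by 1 or more, with a median of -0.70. The 13 genes with a C start had a median difference of -2.76, against -2.59 in the other 43 genes of the promoter table, ranges overlapping from -3.36 to -1.02 and from -5.58 to -0.57.

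The genes of the family kept a similar course over the groups of cells. Over 10 groups of at least 5 cells that share a state and a run name, 70 of the 76 genes had a Pearson r above 0.9 with the mean of the others. The lowest value was that of Rps27 (0.82), and Rps9 was at 0.88. Outside the family, the genes most like its mean were Nap1l1, a histone chaperone (0.992), H2afy, which encodes macroH2A1 (0.992), Ppia, cyclophilin A (0.991), Npm1 (0.988) and Atp5g2, a subunit of mitochondrial ATP synthase (0.987). Several groups share a run, and the number of detected genes differs between groups, so these values are a description. The share of all genes with an r above 0.9 was not counted. Genes outside the family reached it as well, so a high r is not particular to the family.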

How the data were processed

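The tools Bowtie2 and RSEM and the genome build mm9 appear in the submitters' processing notes, with no version. The deposited table of the authors holds log2(TPM + 1) of 23946 genes in each cell, as its values show: 2 to the power of a value, minus 1, sums to between 999517 and 1001450 in each cell. A second deposited table gives a state name per cell. No read count is kept, so counting error on TPM cannot be given. Calculations were made in Python 3.11.15 with numpy 2.4.6, pandas 2.3.3 and scipy 1.17.1, and the difference of means was checked on simulated data. No 2 cells held identical values. Detection shares carry exact (Clopper-Pearson) 95% binomial intervals for counting error only.

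The family, the gene lists and the comparisons were chosen with earlier results of these data known. Genes are named by this rule: the 5 most negative and 5 least negative Myelo minus Gran differences in CD11b+ GMP-P, the 4 highest and 4 lowest mean TPM, the stalk and 5S proteins, ubiquitin fusion genes and paralogs past the filter, up to 4 genes of each other list by size of difference, and the 5 genes outside the family most like its mean. Rps2, Rps3a1, Rps13, Rps21, Rps27, Rps27a, Rps27rt, Rps29, Rpl4, Rpl17, Rpl21, Rpl34 and Rpl36a were named for other reasons, some after their values were seen. Single-gene values of 2 genes that the rule or the patterns would name are not reported here; they stay in the counts and medians. Alternatives changed the scaling, the pseudocount, the average, the filter and the cells taken.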

Additional observations from a re-analysis of the deposited data

Results flagged for a closer look

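Each gene below is one whose difference had opposite signs in 2 settings of the same comparison, at least 0.5 from 0 in both. None of these differences between settings was tested. For Myelo minus Gran, Rpl30 was -3.20 in CD11b+ GMP-P and 0.67 in July GMP, and Rpl34 was -2.23 in CD11b+ GMP-P and 0.74 in July GMP. Only 3 Gran cells stand behind the July GMP values, all 3 at 0 for Rpl30 and 1 at 0 for Rpl34. The mix of Myelo and Gran states also differs between CD11b+ GMP-P and July GMP.

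For the difference between the populations, CD11b+ GMP-P minus GMP, 10 genes were above 0 within Myelo-2 and below 0 within Mono. Rps15 was 1.76 within Myelo-2 and -0.59 within Mono, and Rpl37a was 1.10 within Myelo-2 and -0.70 within Mono. Rpl13 was 0.94 within Myelo-2 and -0.51 within Mono, and Rps2 was 0.92 within Myelo-2 and -1.21 within Mono. Rps26 was 0.84 within Myelo-2 and -0.97 within Mono, and Rpl26 was 0.79 within Myelo-2 and -1.05 within Mono. Rpl27 was 0.64 within Myelo-2 and -0.69 within Mono, and Rps27a was 0.62 within Myelo-2 and -0.84 within Mono. Rpl23 was 0.61 within Myelo-2 and -0.82 within Mono, and Rpl35a was 0.57 within Myelo-2 and -0.69 within Mono. For Rps15, the median TPM within Myelo-2 was 157 in CD11b+ GMP-P cells, against 163 in GMP cells, 1 of the 7 GMP cells was at 0, and the ratio of mean TPM was -0.10 on the log2 scale.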

How the results depend on the processing

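Of 109 recomputed values, 101 stayed within 1.5 times of the reported value or, for a median of the family between -1 and 1, within 0.5 of it. The values without a filter, or with detection in 50% of cells, could not move, since all 76 genes are kept under each setting. They are counted among the 101 and show nothing about stability. On the ratio of mean TPM, the medians were -1.47 for Myelo minus Gran in CD11b+ GMP-P, -1.17 for Myelo-4 minus Myelo-2 and -1.36 for CD11b+ GMP-P minus GMP. With only cells of at least 2000 detected genes, Myelo minus Gran was -1.74 and 2 genes (Rpl27 and Rps15a) were at or above 0, and Myelo-4 minus Myelo-2 gave no value, since fewer than 2 Myelo-4 cells remained. Without Myelo-4, an alternative added after seeing the data, 1 gene (Rpl27) was at or above 0. With cells scaled to one upper quartile, CD11b+ GMP-P minus GMP within Myelo-2 was -1.15. Against July GMP only, CD11b+ GMP-P minus GMP reversed to 0.13, where the mix of states differs. The count of genes lower by 1 or more in Myelo ranged from 63 to 74, by alternatives added after seeing the data. The cause of these shifts was not tested. No paired analysis was possible because the cells carry no number shared between populations that marks a common animal, and no result comes from a test.

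Depth per cell is unknown, and a 0 can be a transcript that was missed. Populations, runs and, for the Myelo states, detected genes vary together and cannot be told apart.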
